A study of Homo sapiens with 27 samples.

Results

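LIM1215 is a human colorectal cancer cell line, and the comparison described here is between its drug-withdrawn cells and the resistant cells they came from. Members were chosen by their labels: the 3 arrays of the line titled as withdrawal were set against the 3 titled as resistant, 6 of the 27 arrays of the series, over all 17687 named genes. Per the labels' protocols, LIM1215 cells grown from a single clone were seeded in dishes. They were then challenged with NK-CD16 cells, natural killer (NK) cells named for the antibody receptor CD16, together with cetuximab, an antibody to the epidermal growth factor receptor (EGFR), at 1 µg/ml. The resistant group is what survived 20 cycles of this challenge. The withdrawal group is the resistant cells after 20 further cycles of culture without it, so both groups share the earlier selection and no control here was kept away from it. All LIM1215 groups grew in 1 medium, with serum, hydrocortisone and insulin, which itself feeds growth factor signalling. The 3 parental arrays are untreated cells of the same line and are used only to place levels. Each group is 1 selected culture history of 1 clone, and the labels do not say that the replicates were separate cultures, so p-values measure only the spread between these arrays.

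The culture method models antibody-dependent cellular cytotoxicity. Cetuximab coats EGFR-bearing tumor cells, CD16 on NK cells binds the antibody, and the NK cell releases granules and interferon gamma. Interferon gamma acts through STAT factors and IRF1 to raise antigen presentation by HLA class I and, through the coactivator CIITA, class II. EGFR signals through the MAPK cascade, whose strength is read from feedback inhibitors such as the DUSP and SPRY genes and from ETV transcription factors.

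Each RNA sample was hybridised alone to an Affymetrix array that probes whole transcripts, and values are read as log2 intensities, so a change of 1 is 2-fold. Colorectal epithelial markers, the check on the labelled cell type, were above background for 16 of 16 genes in every group. Background was set from the negative control probe sets: a group mean under the mean of its arrays' 95th percentile of these controls is called near background, and a fold against such a group is written as a lower bound ("at least"). Between 49.9% and 53.5% of genes on a LIM1215 array exceeded that percentile. Correlations between arrays of 1 group were 0.99573 to 0.99646 for resistant and 0.99582 to 0.99642 for withdrawal, against 0.97905 to 0.98052 between the groups. Parental replicate 3 stood apart from parental replicates 1 and 2, so parental readings of a gene, where printed, are given array by array. Some comparisons with parental levels use replicates 1 and 2 only. Parental replicate 3 enters none of the tests reported here. It enters alternative fits that add the parental arrays, and the parental group mean that sets which genes are near background. Its values also enter descriptions of parental levels and, with all other arrays, the choice of probe set for the 20 genes with several.

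Of the 17687 genes, 5286 (29.9%) differed between withdrawal and resistant cells at an adjusted p under 0.05 (limma, Benjamini-Hochberg). They divided into 2537 genes higher in withdrawal (14.3%) and 2749 lower (15.5%). At 2-fold or more, 1741 genes passed (9.84%), 828 higher (4.68%) and 913 lower (5.16%). For 8128 genes (46%) the withdrawal arrays all lay on 1 side of the resistant arrays, 4063 above them (23%) and 4065 below (23%). Changes ran from -10.16 to 9.28, and the median over all genes was 0.03. Where both groups were near background, 11.2% of 8319 genes passed the test, against 44.9% of the 8804 genes above background in both. When each array was centred on its median, 5332 genes passed, 3180 higher and 2152 lower, so 59.6% of calls were higher in place of 48%.

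**Figure D1:**
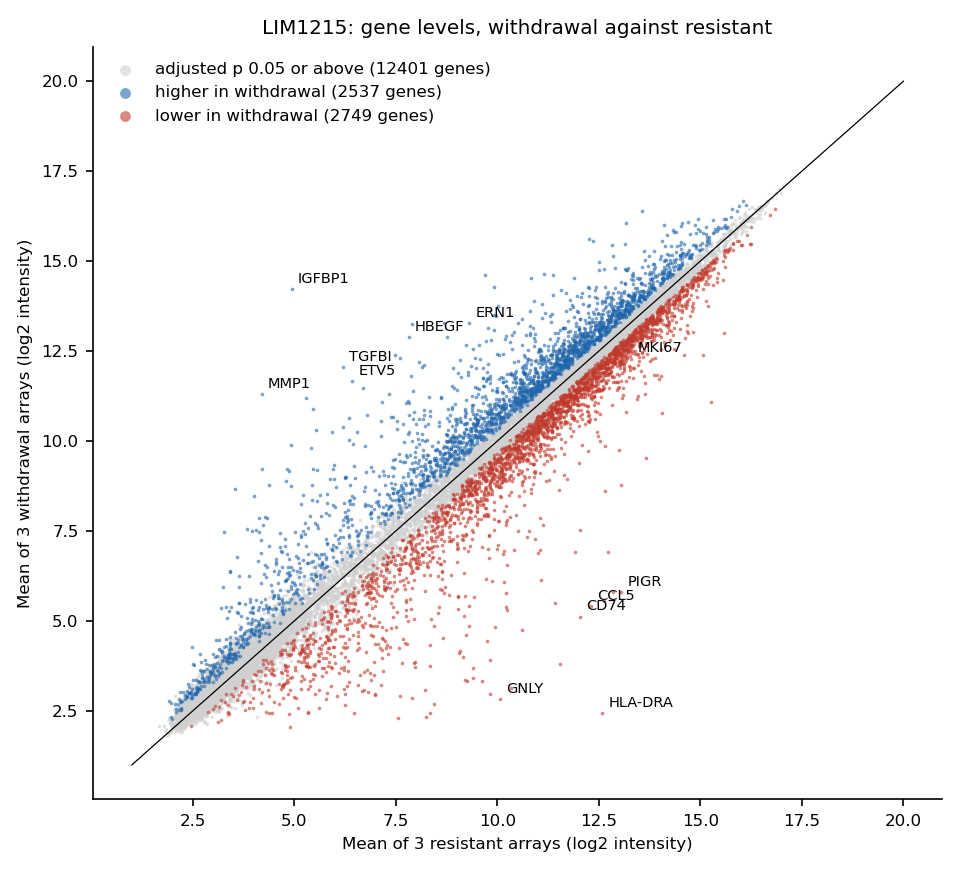
Mean log2 intensity of each gene over the 3 withdrawal arrays (vertical axis) against the 3 resistant arrays (horizontal axis), with the line of equal levels; 1 point is 1 gene. The 2537 genes higher in withdrawal are blue and the 2749 lower are red; HLA-DRA lies farthest below the line and IGFBP1 farthest above it.

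HLA-DRA had the most negative difference on withdrawal. It encodes the alpha chain of the HLA-DR class II molecule and read 12.35, 12.46 and 12.96 in the resistant arrays and 2.14, 2.19 and 2.96 in the withdrawal arrays. The groups lie far apart and withdrawal is near background, so the difference of -10.16 (SE 0.269, adjusted p = 8.19e-06, limma) is at least a 34.9-fold fall. PIGR, the receptor that carries polymeric immunoglobulin across epithelium, read 12.98, 13.01 and 13.17 and then 5.31, 5.98 and 6.11, at least 47.9-fold lower (adjusted p = 9.86e-06). Parental PIGR read 5.31, 4.51 and 4.84, which overlaps the withdrawal arrays. ALOX5AP, the leukotriene synthesis cofactor, fell by 7.07 (at least 35.8-fold). PTGDR, a prostaglandin D2 receptor, read 12.87, 12.77 and 12.92 in resistant cells and 5.70, 5.92 and 5.81 after withdrawal. PTGDR in parental replicates 1 and 2 read 11.22 and 10.94, above every withdrawal array, while parental replicate 3 read 6.20. Withdrawal thus took PTGDR below the level of those parental arrays. MSN, the membrane-cytoskeleton linker moesin, fell by 5.94 (at least 15.6-fold).

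IGFBP1, an insulin-like growth factor binding protein, had the highest difference. It read 5.32, 4.21 and 5.30 in the resistant arrays and 14.25, 14.18 and 14.23 in the withdrawal arrays, at least 88.9-fold higher (change 9.28, SE 0.301, adjusted p = 1.26e-05, limma). IGFBP1 was at 6.16 and 6.45 in parental replicates 1 and 2 and at 12.12 in parental replicate 3, so every withdrawal array exceeded all parental arrays. MMP1, the interstitial collagenase, rose by 7.11 (at least 11.8-fold), and its parental arrays read 5.17, 5.06 and 8.07. TGFBI, a secreted matrix protein, rose by 5.86 (at least 19.7-fold) from a resistant mean of 6.19 to 12.05. Its parental arrays read 11.72, 11.58 and 12.46, so TGFBI was low in resistant cells and after withdrawal lay within the parental range. EFNB2, an ephrin ligand, rose 40.5-fold and SERPINE2, a serine protease inhibitor, 30.2-fold, both measured above background in each group. CTSE (cathepsin E, at least 11-fold), SPRR2D (a cornified envelope protein, at least 8.85-fold), CALB2 (calretinin, at least 1.91-fold), TREML2 (at least 2.77-fold), CYP3A5 (a drug-oxidising enzyme, at least 4.47-fold), ARHGAP29 (at least 13.4-fold) and FOXQ1 (a forkhead factor, at least 5.89-fold) complete the 15 largest rises with the ErbB and MAPK genes below.

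Lymphocyte markers fell almost as a block. Of 34 NK and cytotoxic lymphocyte markers measured, 27 fell and 0 rose, with a median change of -3.43 against 0.03 over all genes. In the resistant arrays 19 of the 34 were above background, with a log2 summed level of 14.31 to 14.69. In the withdrawal arrays 2 of 34 were, at 11.18 to 11.21, and in the 3 parental arrays 2 of 34, at 11.17 to 11.62. GNLY (granulysin, a cytolytic granule protein) read 10.31, 10.12 and 9.74 in resistant cells and 2.82, 2.84 and 2.80 after withdrawal, at least 6.02-fold lower. CCL5, a chemokine of activated lymphocytes that epithelium can also make, read 12.36, 12.34 and 12.24 and then 5.56, 4.93 and 5.77, at least 28.7-fold lower. No resistant array of either gene overlapped a withdrawal array. LCP1 (leukocyte plastin, at least 17-fold), CCL3 (at least 7.31-fold), GZMK (granzyme K, at least 5.09-fold), CST7 (at least 4.47-fold), CD96 (at least 3.46-fold) and XCL1 (at least 1.83-fold) fell too. Among markers that define NK cells, NCAM1 fell by 4.43 (at least 3.57-fold) and FCGR3A, the gene of CD16, by 4.11 (at least 1.42-fold), each near background after withdrawal. The markers KLRB1, KLRF1 and GZMM were near background in all LIM1215 groups and did not pass the test.

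Of these markers RAC2 was above background in every group. IL2RG, the shared cytokine receptor chain, was above background in resistant and withdrawal cells and among the parental arrays only in replicate 3, which lifts the parental mean over background. IL2RG fell 2.22-fold to a withdrawal mean of 10.08, which is above its parental readings of 6.74, 7.28 and 9.88. Of 11 T cell markers, 2 fell and 0 rose: CD3E fell by 4.12 (at least 2.28-fold) and TRAT1 fell by 2.50, near background in both groups. The 18.2% of T cell markers that fell is near the 15.5% of all genes that fell. The T cell markers' log2 summed level was 9.13 to 9.31 in resistant, 6.97 to 7.25 in withdrawal and 7.04 to 7.13 in parental arrays. No B cell marker of 7 passed, and none was above background in any group. Of 14 myeloid markers 2 fell (CSF1R and LYZ, near background in both groups) and CD68, a lysosomal protein, rose 2.77-fold. The 21.4% of myeloid markers that passed is under the 29.9% of all genes. The labels do not say whether challenge cells were removed before RNA extraction. In these bulk arrays fewer cells of a type and less RNA per cell cannot be told apart. The part of lymphocyte RNA in the other falls, those given above, such as HLA-DRA, ALOX5AP and MSN, and those described next, was not tested.

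**Figure D2:**
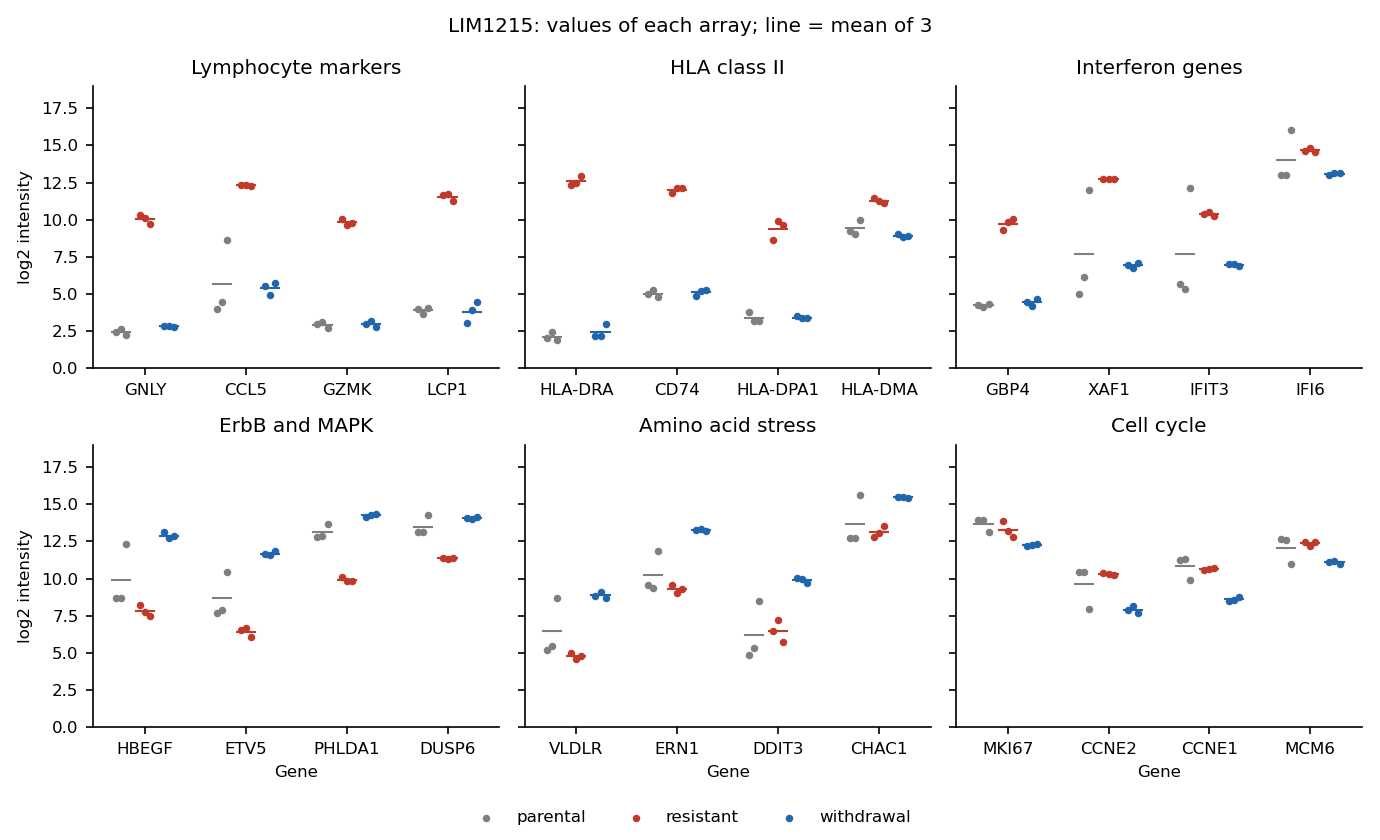
Log2 intensity of each LIM1215 array (vertical axis) for 4 genes in each of 6 groups; points are arrays, the short line is the mean of 3, and colours give parental, resistant and withdrawal. Lymphocyte and class II genes are highest in the resistant arrays, whereas ErbB, MAPK and stress genes are high in withdrawal and in parental replicate 3.

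HLA class II genes fell with the lymphocyte markers, and in T cells and activated NK cells some of them are expressed too. Of 13 class II presentation genes, 11 fell and 0 rose, with a median of -3.26. CD74, the invariant chain, read 11.81, 12.11 and 12.15 in resistant cells and 4.89, 5.21 and 5.27 after withdrawal, at least 23.6-fold lower. HLA-DPA1 fell by 5.98 (at least 3.79-fold), HLA-DPB1 by 5.14 (at least 1.69-fold) and HLA-DRB5 fell by 5.84 (at least 8.78-fold); the DRB genes are near-identical copies whose probes may share signal. CTSS, the protease that trims the invariant chain, fell by 4.98 (at least 21.7-fold). CIITA, the class II coactivator, read 5.17, 5.07 and 5.25 and then 3.23, 3.54 and 2.57, which does not overlap but is near background in both groups (change -2.05, adjusted p = 0.00148, limma). HLA-DMA, which loads peptides, fell 5.14-fold from 11.28 to 8.92, and its parental arrays at 9.23, 9.03 and 10.01 lay above every withdrawal array. HLA-DOA and HLA-DOB were near background in both groups and did not pass.

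Class II promoters carry a Y box, bound by the NF-Y complex, near the start. The letters CTGATTGG, searched on both strands of the 250 bases before the start, were in 4 of 10 class II genes with a promoter in the RefSeq table (40%), in 5.07% of the 14250 tested genes with a promoter, and in 3.98% of all 27305 promoters. Those members were HLA-DMA, HLA-DQB1, HLA-DRB1 and HLA-DRB5. All 4 fell, in a list where 8 of the 10 genes with a promoter fell. The HLA-DMA promoter is shown because this gene stayed above background in both groups, so its fall has a measured fold. It lies at chr6:32953098-32953317 on the minus strand of GRCh38.p14 and is printed 5′ to 3′ up to the base before the start, with the Y box letters in capitals.
HLA-DMA: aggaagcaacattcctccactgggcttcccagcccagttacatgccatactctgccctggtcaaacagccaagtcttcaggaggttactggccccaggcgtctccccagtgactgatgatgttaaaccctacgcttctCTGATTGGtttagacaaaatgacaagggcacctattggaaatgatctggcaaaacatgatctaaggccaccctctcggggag

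HLA class I presentation fell less steeply. Of 18 genes 15 fell and 0 rose, with a median of -1.44. Immunoproteasome subunits fell: PSMB10 read 12.60, 12.70 and 12.69 and then 9.71, 9.87 and 10.04 (6.91-fold lower, adjusted p = 2.37e-05, limma), and PSMB9 fell 6-fold. ERAP2, a peptide-trimming protease, fell by 2.78 and was near background in both groups. TAP1, the peptide transporter, fell 3.51-fold, TAPBPL 3.49-fold and the proteasome activator PSME1 3.48-fold. The heavy chain HLA-E fell 1.43-fold and the light chain B2M 1.31-fold, from 16.84, 16.81 and 16.85 to 16.46, 16.41 and 16.45. Small as it is, the B2M difference exceeded the spread between arrays (adjusted p = 0.0118, limma). With the 3 parental arrays in the fit the adjusted p of B2M was 0.166, and with the replicate number as a block it was 0.0506 (limma). In both fits its change stayed at -0.39, so the adjusted p moved without a move of the estimate. The cause was not tested. After withdrawal most class I genes still read above parental replicates 1 and 2: 10 of the 15 genes that fell were above both in all withdrawal arrays and 2 were below both, while in resistant arrays all 15 were above. Parental replicate 3 lay higher: the median level of the list was 13.28 in it and 12.74 to 12.85 in the withdrawal arrays. In parental replicates 1 and 2 that median was 12.22 and 12.14. The chaperones CALR (-0.27) and PDIA3 (-0.07) and the class I coactivator NLRC5 (-1.43) did not pass.

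Interferon response genes mostly fell, with a few exceptions that rose. Of 26 interferon gamma response genes, 16 fell and 3 rose, with a median of -1.59. GBP4, an interferon-induced GTPase, read 9.33, 9.82 and 10.06 and then 4.48, 4.19 and 4.68, at least 4.83-fold lower. GBP1 fell by 4.07 (at least 6.45-fold), GBP2 9.86-fold and CASP1, the caspase that matures interleukin 1 beta, by 4.93 (at least 12.2-fold). IRF1, the transcription factor at the head of the response, read 13.17, 13.24 and 13.11 and then 10.97, 10.64 and 10.78, a 5.19-fold fall that still left every withdrawal array above parental replicates 1 and 2 at 9.59 and 9.61. The genes that rose were CASP4 (2.80-fold), WARS1, the tryptophanyl-tRNA synthetase (1.43-fold), and CXCL11 (0.99, near background in both groups; adjusted p 0.0539 without withdrawal replicate 2).

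Type I interferon response genes numbered 44, of which 32 fell and 3 rose (median -1.28). XAF1, a pro-apoptotic interferon gene, read 12.72, 12.77 and 12.71 and then 6.97, 6.73 and 7.07, at least 38.4-fold lower. BST2 (tetherin) fell by 5.90 (at least 1.70-fold) and TRIM22 by 4.94 (at least 6.87-fold). IFIT3 read 10.40, 10.54 and 10.26 and then 7.04, 6.99 and 6.89, at least 7.64-fold lower. OAS2, an RNA sensor, fell 9.10-fold and SAMD9L by 3.60 (at least 1.97-fold). The genes that rose were ISG20 (at least 1.04-fold), OASL (2.74-fold) and RSAD2 (1.61-fold). Parental replicate 3 had high values for these genes, for example 12.13 for IFIT3 against 5.69 and 5.35 in replicates 1 and 2. With the parental arrays in the fit, 9 of the 44 passed as lower in place of 32. The adjusted p was then 0.139 for IFIT3 and 0.188 for OAS2 (limma), while their changes stayed at -3.43 and -3.19. RSAD2 did not pass when resistant replicate 1 or 2, or withdrawal replicate 1 or 2, was left out (adjusted p between 0.07 and 0.0992). In all withdrawal arrays 19 of the 35 genes that passed were above parental replicates 1 and 2 and 5 were below.

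The interferon-stimulated response element is the site of the ISGF3 complex of type I interferon signalling. Its letters, GAAA, any 2 bases and GAAA again, on both strands of the 250 bases before the start, were in 22 of 37 type I interferon response genes with a promoter (59.5%), in 2.65% of tested genes with a promoter and in 3.07% of all promoters. Of these 22 members, 19 fell and 1 rose, and of all 37 list members with a promoter 29 fell and 2 rose. The element was in 3.7% of the promoters of all genes that fell and 1.92% of those that rose. IFIT3 and IFI6 are shown because they carry 2 and 3 copies and fell by unlike amounts, IFI6 3.05-fold and IFIT3 at least 7.64-fold. The IFIT3 promoter is chr10:89327777-89327996 on the plus strand and that of IFI6 is chr1:27672193-27672412 on the minus strand (RefSeq, GRCh38.p14), with the element in capitals, in either orientation.
IFIT3: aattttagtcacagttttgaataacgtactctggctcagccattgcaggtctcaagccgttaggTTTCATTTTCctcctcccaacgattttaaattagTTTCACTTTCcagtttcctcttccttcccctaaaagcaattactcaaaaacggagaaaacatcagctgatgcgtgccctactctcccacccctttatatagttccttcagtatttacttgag
IFI6: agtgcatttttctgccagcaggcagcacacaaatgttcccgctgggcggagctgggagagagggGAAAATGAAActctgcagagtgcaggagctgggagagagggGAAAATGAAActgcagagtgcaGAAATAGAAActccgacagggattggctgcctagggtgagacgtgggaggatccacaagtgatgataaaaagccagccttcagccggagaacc

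Of 24 interferon receptor and JAK-STAT regulator genes, 7 rose and 7 fell. IFNGR1 rose 2.35-fold and IFNGR2 2.07-fold, the pair of chains of the interferon gamma receptor, while the downstream factor IRF9 fell 2.05-fold and the feedback protease USP18 2.20-fold. STAT3 fell 1.39-fold and CISH, a STAT5 feedback inhibitor, by 1.86 (at least 3.16-fold). The number that rose was 4 when resistant replicate 1 or any 1 withdrawal replicate was left out.

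Ligands read by NK cells did not move together. Of 23 NK-activating and adhesion ligands, 7 rose and 7 fell, while 14.3% of all genes rose and 15.5% fell. Among the ligands that fell, CD48, SLAMF7, CLEC2D and CLEC2B were near background in both groups. RAET1G, among those that rose, was near background in both groups too. Stress ligands of the NKG2D receptor rose: ULBP1 read 7.71, 8.13 and 8.36 and then 12.24, 12.26 and 12.12 (17.6-fold, adjusted p = 2.67e-05, limma), and ULBP2 rose 11.1-fold and RAET1L by 3.08 (at least 2.31-fold). The ULBP2 family holds near-identical copies, so its signal may be shared among them. MICB, another NKG2D ligand, fell 6.79-fold, from 11.63, 11.74 and 11.75 to 8.98, 8.70 and 9.15, while the change of MICA was 0.54 (adjusted p = 0.0693). PVR, which binds DNAM-1, rose 3.03-fold and CD58, which binds CD2, 1.89-fold. NCR3LG1, the ligand of NKp30, fell 2.43-fold.

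Of 22 inhibitory ligands, 5 rose and 8 fell. LGALS9 (galectin 9), which is also interferon-induced, read 13.67, 13.80 and 13.53 and then 9.64, 9.36 and 9.59 (17.5-fold lower). NECTIN3 fell 4.08-fold, and CEACAM1, which dampens NK cells, rose 2.15-fold. CD274, the gene of PD-L1, read 8.05, 8.32 and 7.29 and then 7.07, 6.24 and 5.92 (at least 1.34-fold lower, adjusted p = 0.0263, limma). That call was lost when resistant replicate 1 or 2 or withdrawal replicate 2 or 3 was left out (0.0823, 0.0815, 0.0794 and 0.0745).

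Among 24 death receptor and granzyme defence genes, 11 rose and 5 fell. TNFRSF10B, a TRAIL receptor, rose 3.79-fold from 12.01, 11.43 and 11.66 to 13.62, 13.59 and 13.66. The survival genes BIRC2 (1.96-fold), BCL2L1 (1.85-fold) and XIAP (1.84-fold) and the complement shield CD55 (1.80-fold) rose, whereas FAS fell 1.54-fold, BID 1.64-fold and BAX 1.42-fold. BAX did not pass without resistant replicate 1, withdrawal replicate 1 or withdrawal replicate 3 (adjusted p 0.0508, 0.0576 and 0.0588). The number that fell was 3 without resistant replicate 1, withdrawal replicate 1 or withdrawal replicate 3. SERPINB9, the granzyme B inhibitor, read 8.69, 9.0 and 8.70 and then 9.56, 9.62 and 8.71, groups that overlap (change 0.50, adjusted p = 0.201). Without withdrawal replicate 3 its change was 0.80 (adjusted p = 0.0137). All 6 values lie below the parental 11.18, 11.08 and 11.25.

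Inflammatory genes split by member. Among all genes 14.3% rose and 15.5% fell, and the share of caspase and gasdermin genes that fell is near the latter. Of 18 inflammatory caspase and gasdermin genes, 6 rose and 3 fell: beside CASP1, its decoy CARD16 fell 22.8-fold and GSDMB 2.24-fold, while IL1B rose by 4.33 (at least 5.65-fold), IL33 by 4.38 (at least 2.75-fold), CASP5 by 3.36 (at least 2.06-fold) and IL18 3.72-fold. IL1B read 5.77, 6.02 and 5.96 in resistant arrays, near background, and 10.25, 10.18 and 10.30 after withdrawal, with no overlap. CASP1 and its main substrate IL1B therefore changed in opposite directions. Of 26 NF-kappaB, chemokine and cytokine genes, 10 rose and 6 fell. CXCL8, the neutrophil attractant interleukin 8, rose 10.9-fold and LIF 6.48-fold, whereas CSF1 fell by 3.42 (at least 9.69-fold) and the feedback inhibitors NFKBIA and TNFAIP3 fell 1.67-fold and 1.55-fold. CFB, complement factor B, read 12.49, 12.93 and 12.54 and then 8.57, 8.65 and 8.64 (16.3-fold lower), 1 of 3 complement genes of 14 that fell. The 28.6% of complement genes that passed is near the 29.9% of all genes, and 1 fell without resistant replicate 1, resistant replicate 3 or withdrawal replicate 2.

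EGFR itself, the target of cetuximab, read 11.44, 11.58 and 11.18 in resistant arrays and 11.59, 11.65 and 11.82 in withdrawal arrays, a change of 0.29 (SE 0.131) that did not pass (adjusted p = 0.157, limma). Several of its ligands did. Of 19 ErbB receptor and ligand genes, 9 rose and 2 fell (median change 0.29). HBEGF read 8.21, 7.76 and 7.49 and then 13.11, 12.72 and 12.85, with no overlap (33.7-fold higher, SE 0.205 on the log2 scale, adjusted p = 2.39e-05, limma). EREG (epiregulin) rose 9.22-fold, from 12.29, 12.39 and 12.40 to 15.55, 15.51 and 15.63. TGFA rose 2.19-fold and BTC (betacellulin) at least 1.49-fold. ERRFI1, a feedback inhibitor that binds the EGFR kinase, rose 7-fold. LRIG1 and CBL, which lower receptor levels, fell 1.29-fold and 1.30-fold. Neither call held in every fit: 1 of the 19 fell without resistant replicate 3, and 0 when any other 1 of the 6 arrays was left out (adjusted p of CBL 0.053 to 0.117 over the 6). BTC did not pass without resistant replicate 1 or 3 or withdrawal replicate 1 or 3 (0.0527, 0.058, 0.0535 and 0.0602). With resistant replicate 1 or withdrawal replicate 3 left out, 4 of the 19 rose, 5 rose without resistant replicate 2, resistant replicate 3 or withdrawal replicate 1, and 6 without withdrawal replicate 2. ERBB2 and AREG were not analysed here.

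MAPK output rose nearly throughout. Of 28 genes, 25 rose and 0 fell (median change 1.41). ETV5, an ERK-driven transcription factor, read 6.55, 6.66 and 6.07 and then 11.63, 11.56 and 11.82, at least 15.2-fold higher. PHLDA1, a feedback gene, read 10.09, 9.86 and 9.81 and then 14.17, 14.29 and 14.37 (20.5-fold, adjusted p = 8.19e-06, limma). For each of these genes the groups were separated by several log2 units. The ERK phosphatases rose: DUSP5 by 3.92 (at least 7.82-fold), DUSP4 8.68-fold and DUSP6 6.49-fold. PLAUR, the urokinase receptor, rose by 4.91 (at least 22.5-fold), EPHA4 by 3.54 (at least 1.09-fold) and SPRY4, a feedback inhibitor, by 2.82 (at least 5.44-fold). The genes that did not pass were CCND1 (-0.11), MYC (-0.02) and IL11 (0.34, near background). Of the 25 that rose, 23 were above parental replicates 1 and 2 in all withdrawal arrays, whereas in all resistant arrays 16 were below both and 7 above. The median level of the list was 11.87 to 12.18 in withdrawal arrays and 12.14 in parental replicate 3. The AP-1 letters TGANTCA were in the promoters of 2 of 18 MAPK output genes that had a promoter (11.1%; PLAUR and IL11), against 5.07% of tested genes with a promoter and 6.6% of all promoters.

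Amino acid and unfolded protein stress genes rose in 27 of 28 cases and fell in 1, with a median of 1.48. This program is run by ATF4 and CHOP when amino acids are short or proteins misfold. ERN1, the IRE1 sensor of the endoplasmic reticulum, read 9.54, 9.05 and 9.31 and then 13.27, 13.33 and 13.22 (15.7-fold, adjusted p = 1.59e-05, limma). DDIT4, an inhibitor of mTORC1, rose 10.3-fold, from 12.08, 12.26 and 12.42 to 15.61, 15.61 and 15.62. Neither gene overlapped between the groups. CEBPB rose 7.80-fold, ATF3 6.88-fold, SESN2 (a leucine sensor) 6.52-fold and DDIT3, the gene of CHOP, by 3.46 (at least 4.50-fold). VLDLR, an ATF4-driven lipoprotein receptor, rose by 4.10 (at least 2.20-fold). CHAC1, which degrades glutathione, rose 5.07-fold, TRIB3 4.90-fold, the asparagine synthetase ASNS 2.67-fold and the cystine transporter SLC7A11 3.73-fold. The mRNA of ATF4, which is controlled mainly in translation, rose 1.37-fold. SDF2L1, a chaperone partner, fell 1.59-fold. In all withdrawal arrays 26 of the 28 were above parental replicates 1 and 2 and the other 2 were below. The median level of the list was 14.8 to 14.97 in withdrawal arrays and 14.6 in parental replicate 3.

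The C/EBP-ATF response element is the site of ATF4 with its partners. Its core letters TGATGNAA were found in 4 of 25 stress genes with a promoter (16%), against 2.2% of tested genes with a promoter and 3.19% of all promoters. The members were ASNS, ATF3, CHAC1 and HERPUD1. All 4 rose, in a list where 24 of the 25 genes with a promoter rose. CHAC1 and ATF3 are shown since they rose most among these 4. The CHAC1 promoter is chr15:40953251-40953470 and that of ATF3 is chr1:212565187-212565406, both on the plus strand (RefSeq, GRCh38.p14). Capitals mark the element, in either orientation.
CHAC1: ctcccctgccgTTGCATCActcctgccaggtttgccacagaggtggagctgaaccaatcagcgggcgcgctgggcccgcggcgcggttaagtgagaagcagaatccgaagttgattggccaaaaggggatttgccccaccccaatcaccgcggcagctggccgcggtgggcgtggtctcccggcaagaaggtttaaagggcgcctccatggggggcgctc
ATF3: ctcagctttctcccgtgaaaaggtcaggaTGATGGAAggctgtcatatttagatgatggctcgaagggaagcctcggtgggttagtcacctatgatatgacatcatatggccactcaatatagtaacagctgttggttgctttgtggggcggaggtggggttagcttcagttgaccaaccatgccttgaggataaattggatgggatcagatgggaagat

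**Figure D3:**
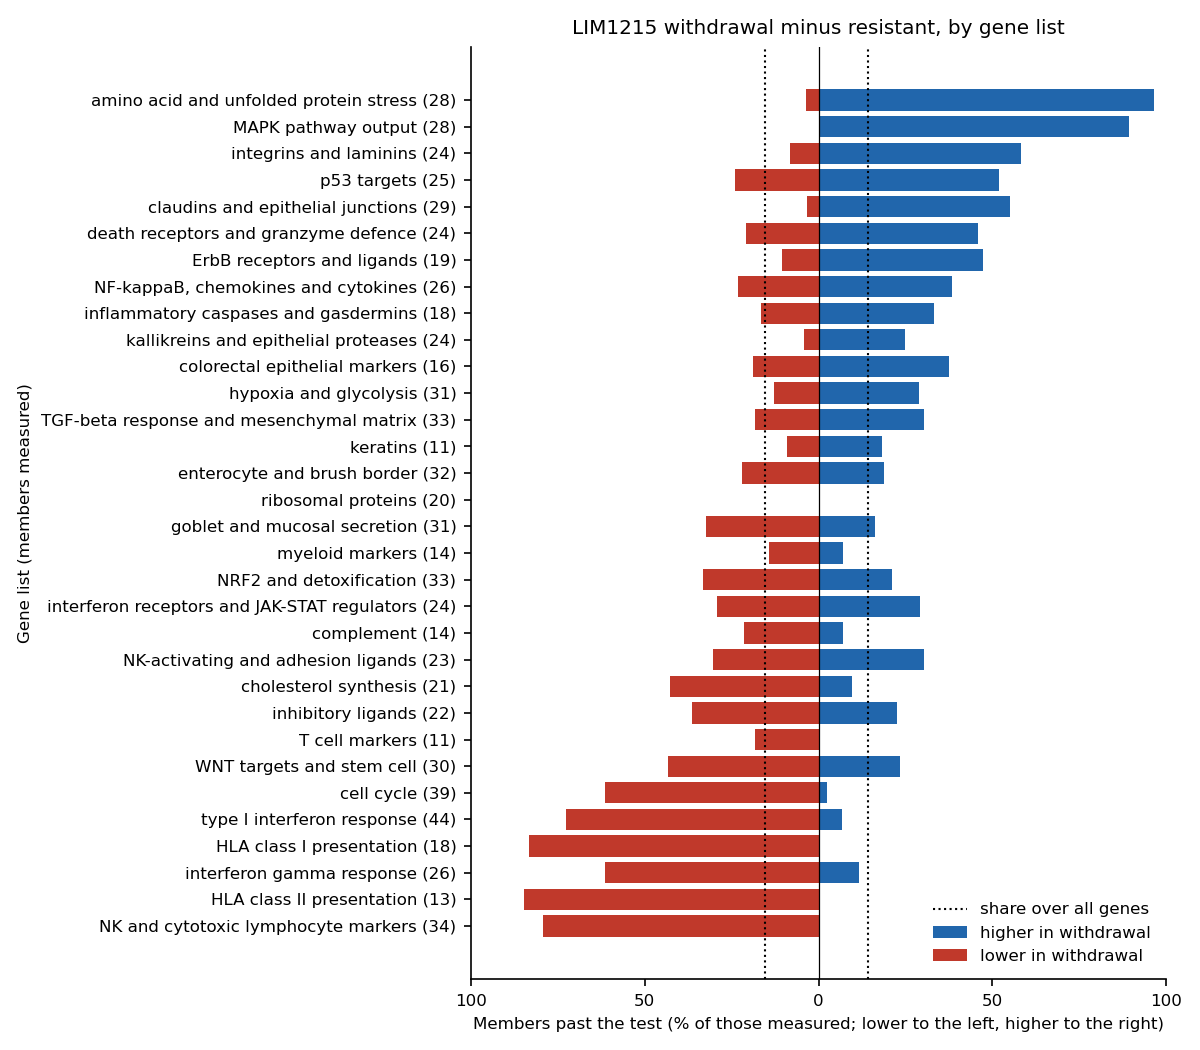
Share of the measured members of each gene list that passed the test (horizontal axis, percent), lower in withdrawal to the left and higher to the right; dotted lines mark the shares over all genes, 15.5% lower and 14.3% higher. MAPK output and stress genes reach far to the right and NK markers, class I and class II genes far to the left.

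Surface and adhesion lists differed in how many members passed. Of 24 integrin and laminin list members 14 rose and 2 fell (median 0.71), including CEACAM6, an adhesion molecule of colorectal cancer (7.01-fold), TNS4, a focal adhesion protein (6.21-fold), TM4SF1 by 3.43 (at least 7.09-fold) and ITGB6 by 1.93 (at least 2.43-fold), while ITGB8 fell 3.05-fold. With any 1 array left out, 1 member of this list fell in place of 2. TM4SF1 read 6.74, 7.59 and 7.10 in resistant, 10.70, 10.63 and 10.38 in withdrawal and 12.31, 12.45 and 11.65 in parental arrays, so its rise left every withdrawal array below the parental ones. Of 29 claudin and junction genes 16 rose and 1, MARVELD3 (1.99-fold), fell. CLDN2, a pore-forming claudin, rose by 3.69 (at least 4.89-fold) and ESRP1, an epithelial splicing factor, 4.06-fold. Of 24 kallikreins and epithelial proteases 6 rose and 1 fell: KLK10 read 8.30, 7.79 and 8.36 and then 12.08, 12.08 and 12.06 (15.2-fold), KLK7 rose by 4.47 (at least 1.66-fold) and PRSS22 by 3.29 (at least 7.65-fold), and ST14 fell 1.30-fold. ST14 did not pass when resistant replicate 1 or 2 or any 1 withdrawal replicate was left out (adjusted p 0.0641 to 0.113). Among 11 keratins KRT80 rose 13.2-fold and KRT7 5.35-fold, and KRT23 fell, near background in both groups. The shares that passed, 29.2% of the proteases and 27.3% of the keratins, are near the 29.9% of all genes.

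TGF-beta response genes divided. Of 33 members 10 rose and 6 fell, with a median of 0.10. Over all genes 14.3% rose and 15.5% fell, and the share of members that fell is near the latter. PMEPA1, a TGF-beta feedback gene, read 5.49, 5.19 and 5.53 and then 9.94, 9.67 and 9.85 (at least 4.22-fold), a range that overlaps its parental readings of 9.61, 9.58 and 9.91. SNAI1 rose by 2.05 (at least 3.22-fold) and BHLHE40 4.05-fold, while the receptor TGFBR1 fell 2.89-fold and ID3 1.98-fold. VIM, the mesenchymal filament vimentin that lymphocytes also express, fell by 3.18, near background in both groups.

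Stem cell and differentiation genes did not move as blocks. For scale, 14.3% of all genes rose and 15.5% fell. Of 30 WNT target and stem cell genes 7 rose and 13 fell (median -0.26). SMOC2 read 11.62, 11.72 and 11.59 and then 9.32, 8.88 and 9.02 (5.95-fold lower), MSI1 fell by 3.68 (at least 2.94-fold), LEF1 3.14-fold, ASCL2, the stem cell factor, 2.65-fold and LGR5, the crypt stem cell receptor, 2.03-fold. DKK1, a secreted WNT inhibitor, rose by 2.76 (at least 2.39-fold) and SOX9 2.06-fold. Of 31 goblet and mucosal secretion genes 5 rose and 10 fell. ATOH1, the factor that commits cells to the secretory lineage, read 8.98, 8.89 and 9.40 and then 5.36, 3.09 and 4.02 (at least 3.08-fold lower), and MUC1 fell 2.53-fold, while MUC6 rose by 2.23 (at least 2.70-fold). Of 32 enterocyte genes 6 rose and 7 fell: the peptidase MME fell by 2.91 (at least 5.50-fold) and CA1 2.85-fold, and CEACAM7 rose by 3.72 (at least 1.07-fold). The colorectal identity factors CDX1 and CDX2 fell 1.96-fold and 1.61-fold, and CEACAM5 rose 2.76-fold. With dim genes left out of the fit, 2 enterocyte genes fell in place of 7.

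Cell cycle genes fell. Of 39 members 24 fell and 1 rose, with a median of -0.60. The E cyclins CCNE2 and CCNE1 fell: CCNE2 read 10.35, 10.31 and 10.26 and then 7.89, 8.12 and 7.65 (5.36-fold lower, adjusted p = 8.25e-05, limma), and CCNE1 fell 4.14-fold. The replicative helicase subunits followed, MCM6 2.47-fold, MCM3 2.24-fold and MCM2 2.19-fold, as did E2F1, 2.39-fold. MKI67, the proliferation marker, read 13.89, 13.22 and 12.79 and then 12.22, 12.29 and 12.35, groups that lie close but do not overlap (2.02-fold lower, adjusted p = 0.031). It did not pass when resistant replicate 2 or any 1 withdrawal replicate was left out (adjusted p between 0.0722 and 0.0862). CDC6 rose 1.33-fold, a call lost without resistant replicate 1 or 2 or any 1 withdrawal replicate (adjusted p 0.0572 to 0.0772). In all withdrawal arrays 24 of the 25 genes that passed were below parental replicates 1 and 2. The median level of the list was 12.64 to 12.78 in withdrawal arrays and 12.59 in parental replicate 3.

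E2F sites with the letters TTTNGCGC were in 5 of 29 cell cycle genes with a promoter (17.2%), against 1.99% of tested genes with a promoter and 1.54% of all promoters. These were CDT1, E2F1, E2F2, MCM6 and MCM7, of which 3 fell, beside 16 of all 29 list genes with a promoter. MCM6 is shown because 2 stretches of its promoter carry the letters on both strands. Its promoter is chr2:135876444-135876663 on the minus strand (RefSeq, GRCh38.p14), and capitals mark the letters on either strand, which overlap within each stretch.
MCM6: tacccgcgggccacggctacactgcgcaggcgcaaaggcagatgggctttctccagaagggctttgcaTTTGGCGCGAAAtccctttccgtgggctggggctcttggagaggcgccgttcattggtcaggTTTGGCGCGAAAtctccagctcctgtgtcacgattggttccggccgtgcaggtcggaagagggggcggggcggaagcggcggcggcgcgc

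Of 25 p53 target genes 13 rose and 6 fell, and several that rose also answer to stress signals. GDF15, a secreted stress cytokine, read 14.12, 14.07 and 14.13 and then 16.03, 16.06 and 15.94 (3.74-fold), PLK2 rose 5.04-fold and GADD45A 4.72-fold. TIGAR fell 1.45-fold and ZMAT3 1.37-fold, a call ZMAT3 lost without resistant replicate 2 or 3 or withdrawal replicate 1 or 2 (adjusted p 0.0771 to 0.0881). Of 31 hypoxia and glycolysis genes 9 rose and 4 fell: HK2, the hexokinase, rose 4.20-fold, VEGFA 2.91-fold and the glucose transporter SLC2A1 2.72-fold, while PGAM1 fell 1.58-fold. Without withdrawal replicate 3, 2 of them fell. Beside these counts, 14.3% of all genes rose and 15.5% fell. Of 33 NRF2 and detoxification genes 7 rose and 11 fell. HMOX1, heme oxygenase, fell by 2.09 (at least 3.59-fold), AKR1C3 by 2.26 (at least 3.64-fold) and GCLM 2.14-fold, against a rise of AKR1B10 by 3.12 (at least 4.36-fold). Of 21 cholesterol synthesis genes 9 fell and 2 rose, LSS falling 2.30-fold. Of these, 6 fell without resistant replicate 1 or 3 or withdrawal replicate 2 or 3. None of 20 ribosomal protein genes passed, with a median of 0.03. Of 18 cancer-testis genes 1 passed, SSX1, near background in both groups, and it did not pass when any 1 array other than withdrawal replicate 1 was left out.

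The same change was next compared with that of the other lines, which were taken through the same design. SW48 withdrawal differed from SW48 resistant cells in 4264 genes (24.1%; 12% higher and 12.1% lower) and Caco2 in 4749 (26.9%; 13.2% higher and 13.6% lower). A test of the difference between lines, fitted over the 18 resistant and withdrawal arrays, called 4553 genes between LIM1215 and SW48 (25.7%) and 5095 between LIM1215 and Caco2 (28.8%). Both differences use the same LIM1215 arrays.

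MAPK output set LIM1215 apart. Of its 28 genes, 8 rose and 7 fell in SW48 (median 0.09), and 8 rose and 14 fell in Caco2 (median -0.77). In the test of the difference 20 changed more upward in LIM1215 than in SW48 and 1 less, against 12.2% and 13.5% over all genes, and 23 and 0 for Caco2, against 14.1% and 14.7%. PHLDA1 changed by 0.36 in SW48 and 0.01 in Caco2, and HBEGF by 0.49 and -0.34. EGFR, in contrast, rose by 1.99 in SW48 and 1.17 in Caco2, both more than in LIM1215 (limma). Cell cycle genes differed as well: 13 rose and 5 fell in SW48 and 8 rose and 6 fell in Caco2, and 23 and 24 of the 39 differed in the direction of lower in LIM1215, 1 and 3 in the direction of higher.

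Stress genes rose in every line, in 22 of 28 cases in SW48 and 20 in Caco2. DDIT4 rose by 3.42 in SW48 and 3.17 in Caco2, beside 3.36 in LIM1215. Still, the difference was called as higher in LIM1215 for 13 members against SW48 and 15 against Caco2, and as lower for 0 and 5. ERN1 rose by 1.21 in SW48 and changed by 0.05 in Caco2.

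Class II genes fell in 7 of 13 cases in SW48 and 2 in Caco2, where HLA-DRA changed by 0.17. Over all genes 12.1% fell in SW48 and 13.6% in Caco2, and the Caco2 share of class II genes is near the latter. HLA-DRA fell in SW48 too, by less than in LIM1215 (difference -2.37), while CD74 fell further in SW48 (difference 3.54). The difference was called for 7 class II members as lower in LIM1215 than in SW48 and 1 as higher, against 13.5% and 12.2% of all genes. For Caco2 it was called for 10 and 0, against 14.7% and 14.1%. Class I genes fell in 16 of 18 cases in SW48 and 17 in Caco2, with medians of -1.83 and -2.17, and the difference was called as higher in LIM1215 for 7 and 11 members and as lower for 1 in each. For example B2M fell by 2.44 in SW48 and 2.14 in Caco2. Type I interferon genes fell in 30 of 44 cases in SW48 (median -1.11), and the difference was called as higher in LIM1215 for 15 and as lower for 13. In Caco2 they fell in 40 cases, and the difference was called as higher in LIM1215 for 31 and as lower for 5. NK markers fell in 20 of 34 cases in SW48 (median -1.27) and 28 in Caco2 (median -3.38). Their difference was called as lower in LIM1215 than in SW48 for 17 and as higher for 1, and against Caco2 for 7 each way. PIGR, GNLY and PTGDR changed by -0.37, -0.85 and -0.11 in SW48 and by -0.28, -2.97 and -1.82 in Caco2.

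**Figure D4:**
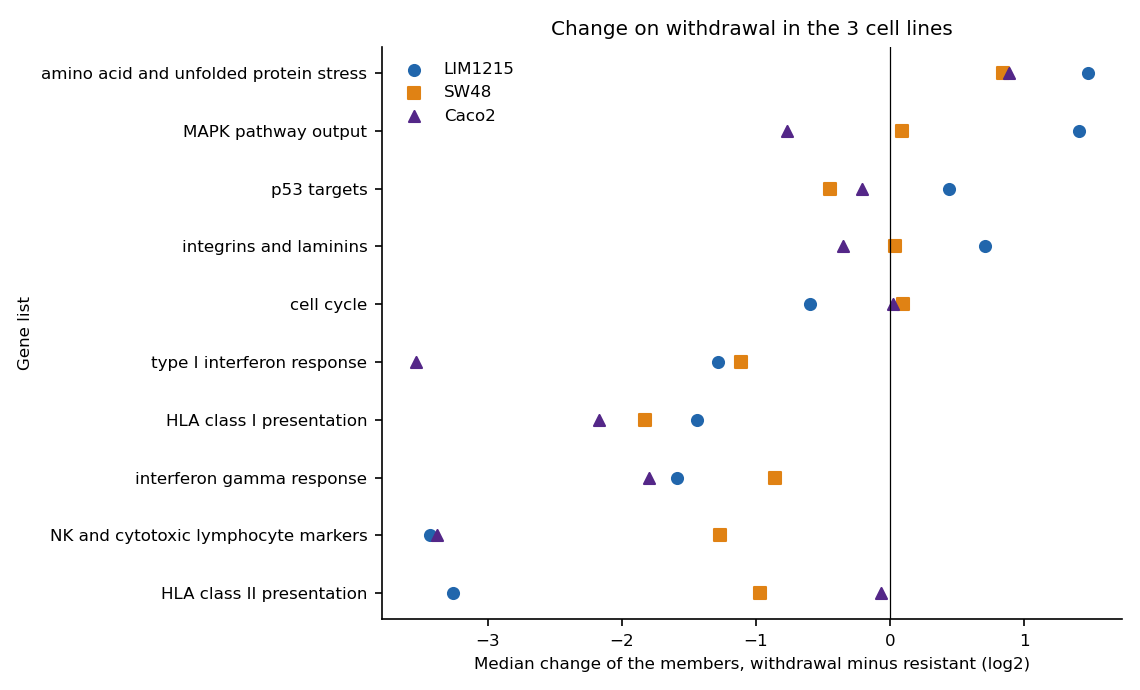
Median change of the members of 10 gene lists from resistant to withdrawal (horizontal axis, log2) in LIM1215, SW48 and Caco2. In MAPK output LIM1215 lies at 1.41, SW48 at 0.09 and Caco2 at -0.77, and in class II genes LIM1215 lies lowest at -3.26.

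Parental replicate 3, which is in neither group compared, shared part of the withdrawal pattern. Over all genes its levels correlated more closely with the withdrawal arrays (0.99169 to 0.99225) than with parental replicates 1 and 2 (0.98709 and 0.98721). With the resistant arrays the correlations were 0.98222 to 0.98291. The difference of parental replicate 3 from the mean of replicates 1 and 2 uses no array of the comparison. Over 17687 genes it correlated with the change on withdrawal with a Pearson coefficient of 0.364 and a Spearman coefficient of 0.368, a description across genes, which are not independent replicates and share array type and probe. Of the 828 genes higher by 2-fold or more in withdrawal, 344 were higher by 1 log2 unit or more in parental replicate 3 and 7 were lower, against 894 and 598 of all 17687. Of the 913 lower genes, 216 were lower in it by that much and 78 higher.

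By list, parental replicate 3 exceeded both other parental arrays for 27 of 28 MAPK output genes (median difference 0.96) and 26 of 28 stress genes (1.11), and lay below both for 37 of 39 cell cycle genes (-0.74). These directions are those of the change from resistant to withdrawal cells. Type I interferon genes were higher in parental replicate 3 for 44 of 44 (median 3.48), whereas most fell from resistant to withdrawal. Beside parental replicates 1 and 2 the withdrawal arrays were higher too: the list median was 9.47 to 9.65 in them against 8.37 and 8.06. NK markers (0.01) and class II genes (0.35) of parental replicate 3 were near the other parental arrays. For example MKI67 read 13.96, 13.96 and 13.11 over the parental arrays, ERN1 9.55, 9.38 and 11.82 and IFI6 12.99, 12.99 and 16.07. Only descriptions are given here, since 1 array carries the pattern.

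**Figure D5:**
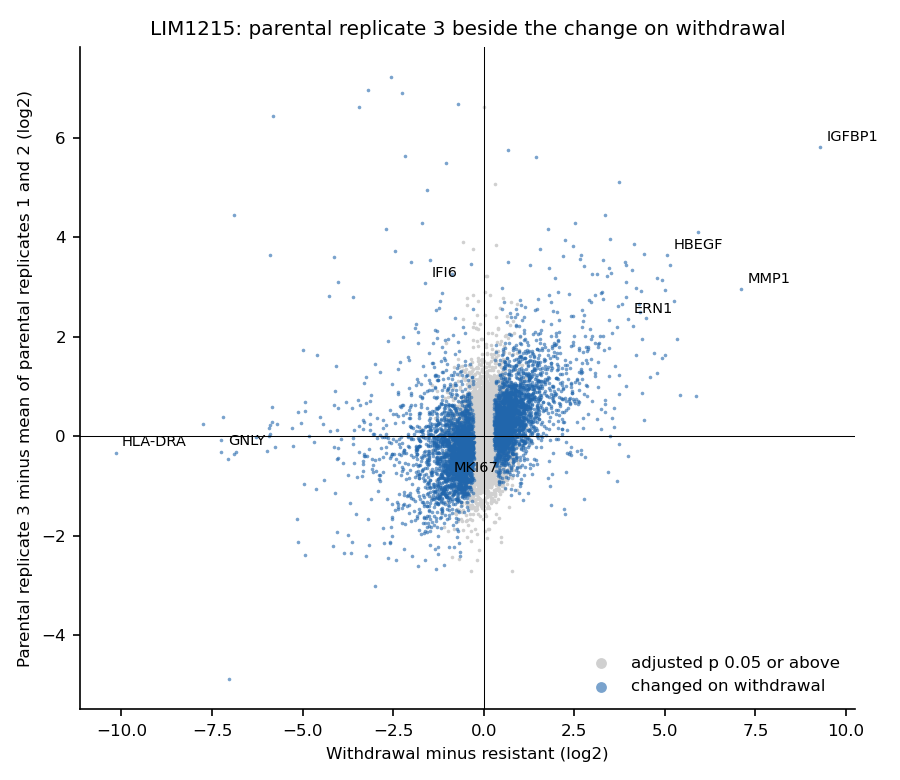
Difference of parental replicate 3 from the mean of parental replicates 1 and 2 (vertical axis, log2) against the change from resistant to withdrawal (horizontal axis, log2); 1 point is 1 gene, and blue points passed the test of withdrawal. IGFBP1 and HBEGF are high on both axes, whereas IFI6 is high in parental replicate 3 and lower after withdrawal.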

How the data were processed

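The authors deposited 1 table of array values, which per the labels comes from GeneChip WT PLUS labelling of 250 ng of total RNA. From their range the deposited values are log2 intensities; no source used here names the software, the normalization or scan batches. Of 24351 probe sets, 2903 are controls (612 negative) and 17709 have 1 gene symbol. For the 20 genes with several probe sets, only the probe set with the highest mean over all arrays was kept. This gave 17687 genes.

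The 6 LIM1215 arrays were fitted with limma 3.58.1 in R 4.3.3 (lmFit, eBayes, two-sided, Benjamini-Hochberg over 17687 genes, called at adjusted p under 0.05). Differences between lines used 18 arrays. The fit was checked on data made with known changes. Promoters are the 250 bases before the first start of a gene in the RefSeq table (GRCh38.p14), matched by symbol for 14250 genes. Named genes are the 15 largest changes each way, up to 6 called members per list and direction, a fixed set and the largest differences between lines; others, such as DUSP6, HLA-DMA, NCAM1 or CHAC1, were named after their values were seen. Members and lists were chosen with earlier results of these data known. The arrays' number limits precision.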

Additional observations from a re-analysis of the deposited data

Results flagged for a closer look

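These results stand out because the change from resistant to withdrawal differed between LIM1215 and another line in a test of the difference (limma over 18 arrays, 3 per group). Groups of 3 were not tested for single arrays far from the rest. Values are measured log2 changes and the differences between the lines' changes. Where a group is near background its true level is unknown and a measured change is no fold: in LIM1215 the fall of PTPRC is at least 1.98-fold, that of HLA-DRA at least 34.9-fold and the rise of IGFBP1 at least 88.9-fold. No order of size should be read from these values.

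Against SW48, 4553 genes differed. PTPRC, the leukocyte antigen CD45, differed by -9.23: it fell by 5.76 in LIM1215 and rose by 3.47 in SW48. PSD3 differed by -7.74 and PTPN13, a phosphatase, by -7.66, since SW48 rose by 7.45 and 8.30 while LIM1215 changed by -0.29 and 0.64. PTGDR differed by -6.93. IGFBP1 differed by 9.36 and MMP1 by 7.77, with LIM1215 rising. ANO1, a chloride channel, differed by 9.12 and TNS4 by 8.30, since in SW48 ANO1 fell by 7.12 and TNS4 fell by 5.67 while both rose in LIM1215.

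Against Caco2, 5095 genes differed. HLA-DRA differed by -10.34, PIGR by -6.97, CYP4X1 by -7.50 and PRKCH, a protein kinase C of lymphocytes and epithelia, by -6.63. CYP4X1 and PRKCH rose by 4.88 and 1.59 in Caco2. IGFBP1 differed by 9.77, CTSE by 8.01 and TGFBI by 6.67. IFIT1 differed by 8.49, having fallen by 0.72 in LIM1215 (not called without resistant replicate 2 or withdrawal replicate 2 or 3: adjusted p 0.0638, 0.066 and 0.0527) and by 9.21 in Caco2.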

How the results depend on the processing

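The count of 5286 genes stayed within 1.5 times its size under every alternative run: 4942 with all 27 arrays in the fit, 3840 with all 9 LIM1215 arrays, 4293 with the replicate block, 5360 after quantile normalization, 5332 after median centring, 5519 without dim genes, 5718 over all probe sets, 6348 with trend and robust moderation, and 4185 to 4527 with 1 array left out. Same-numbered arrays did not deviate together (r -0.041 to 0.014), so the numbers were not taken to pair the arrays; the block gave 4419 and 4955 for the differences from SW48 and Caco2. Leaving out 1 array gave 4058 to 4648 and 4576 to 5124 for these. Centring moved the median of all genes from 0.03 to 0.12 and, for SW48, the split to 2732 higher and 1930 lower. No named gene reversed. Of 287 named genes, 28 lost their call with 27 arrays, 50 with 9, 26 with the block, 13 with centring and 20 to 31 with 1 array left out. Changes of low genes are limited by array background.

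These list counts moved by more than 1.5 times. With all 9 LIM1215 arrays, type I interferon genes lower went from 32 to 9, NF-kappaB genes higher from 10 to 5, junction genes higher from 16 to 10, hypoxia genes higher from 9 to 5, enterocyte genes higher from 6 to 2, NRF2 genes higher from 7 to 4, interferon receptor genes from 7 to 4 each way, and inhibitory ligands from 5 to 3 higher and from 8 to 4 lower. The same fit, the fit with 27 arrays and the replicate block took death receptor genes lower from 5 to 2, 3 and 2, p53 targets lower from 6 to 3 in each, and epithelial markers higher from 6 to 3, 2 and 3. ErbB genes higher went from 9 to 5 with 27 arrays and with the block. The block also gave 4 interferon receptor genes higher, 5 cholesterol genes lower in place of 9 and 2 hypoxia genes lower in place of 4, and centring gave the same counts for cholesterol and hypoxia and 3 p53 targets lower. Trend and robust moderation gave 11 NRF2 genes higher, and it and the fit with 27 arrays gave 4 T cell markers lower in place of 2. The MAPK output, stress, cell cycle, class I, class II and NK marker counts of at least 4 genes stayed within 1.5 times under the alternatives run.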
